A study of Bos taurus with 16 samples.

Results

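The genes described here are 9 genes of the complement system, SERPING1, C1QA, C1QB, C1QC, C1R, C1S, C3, C7 and CFD, out of 34109 genes counted by RNA sequencing in skeletal muscle of newborn Hanwoo calves (Bos taurus). Each was found by its NCBI gene ID, and all 9 had counts in all 16 libraries. The samples were round and sirloin muscle of 8 male calves, taken at birth before colostrum. The dams of the 4 control calves were fed 100% of their nutritional requirement, and the dams of the 4 treated calves were overfed at 150% of it from mid to late pregnancy. Each calf gave 1 round and 1 sirloin library, so the 16 libraries form 4 groups of 4. A replicate number within a diet is taken to name the same calf in both muscles. Calves, not libraries, were the biological replicates, and bulk muscle holds many cell types, so that more cells of a type and more RNA per cell cannot be told apart. The set was selected on measured values, since it was proposed with results of these data in view, the diet contrast of sirloin muscle among them. Values of that contrast, and of any measure built on it, are therefore given as a description.

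Complement is a cascade of blood and tissue proteins that tags microbes and damaged cells. In its classical pathway the recognition protein C1q, built of the chains encoded by C1QA, C1QB and C1QC, carries the proteases C1r and C1s, which on activation cut C4 and C2. The C1 inhibitor encoded by SERPING1 stops both proteases. Every route leads to C3, factor D (CFD) is the protease that starts the alternative route, and C7 belongs to the complex that inserts into membranes. C1q in tissues is known as a product of macrophages, C1R, C1S and SERPING1 are widely made by fibroblasts and other stromal cells, C3 is made chiefly by the liver, and factor D by fat cells. In the bovine gene table used for names (RefSeq, ARS-UCD2.0), C1QA, C1QB and C1QC lie together with 1 other locus between them, and C1R and C1S are direct neighbours.

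Total counts per library ran from 44473011 to 72446933. Muscle genes were high in every library, with a summed level of 11 skeletal muscle markers between 56885 and 102798 TPM (a level per transcript length, scaled to the library). Some libraries stood apart in markers of other tissues. In the sirloin library of treated replicate 4, 8 adipocyte markers summed to 4221 TPM, against 73.3 to 274 TPM in the other libraries. In the round library of treated replicate 3, 8 hepatocyte markers summed to 54.9 TPM, against 2.03 to 20.7 TPM elsewhere, and in the round library of control replicate 2, 10 fibroblast markers summed to 2527 TPM, against 308 to 1025 TPM elsewhere. Both libraries of control replicate 2 were also the deepest of their muscle, and their TPM values followed their counts less closely than in the other 14 libraries (r of the deviations across genes 0.927 and 0.933, against 0.980 to 0.989).

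The members spanned a wide range of levels in newborn muscle. On the TPM scale SERPING1 was the highest, at 41.0 ± 33.7 TPM (SD over the 16 libraries), and it exceeded C1S, the next gene in the order, in all 16 libraries. C1S followed at 20.9 ± 18.9 TPM and C1R at 17.7 ± 16.1 TPM. These proteases share a complex, and C1S was the higher of the pair in 12 libraries, with a ratio of C1S to C1R between 0.788 and 2.02. C7 had 7.77 ± 4.23 TPM, C1QA 7.68 ± 8.31 TPM, C1QB 7.33 ± 9.48 TPM and C1QC 4.80 ± 5.69 TPM. C7 exceeded C1QA in 10 libraries and C1QA exceeded C1QB in 11, so that neighbours in this stretch of the order did not differ beyond their spread. Within C1q, C1QA exceeded C1QC in every library, by a median ratio of 1.65. CFD stood at 1.70 ± 0.984 TPM, and C3, the central component, was the lowest at 0.344 ± 0.318 TPM, below CFD in all 16 libraries. The counts behind these levels were 550 to 5566 per library for SERPING1, 33 to 912 for the C1q chains, 294 to 4949 for C1R and C1S, 237 to 1540 for C7, 19 to 143 for CFD and only 6 to 160 for C3.

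Whether overfeeding of the dam went with a different complement level was first compared in round muscle. In CPM (counts scaled to library size, with TMM factors within the muscle), SERPING1, the C1 inhibitor, read 40.9, 43.0, 15.0 and 13.6 in control replicates 1 to 4, and 53.5, 98.4, 24.2 and 17.3 in treated replicates 1 to 4. The groups overlapped, with treated replicate 2 above every other library. The means were 28.1 ± 16.01 CPM in the controls and 48.4 ± 36.9 CPM in the treated calves (SD, n = 4 per group), which the fit put at a log2 fold change of 0.78 ± 0.54 (SE). That difference was within the spread between calves (adjusted p = 0.864, edgeR quasi-likelihood test with Benjamini-Hochberg adjustment over all genes). Without treated replicate 2 the log2 fold change of SERPING1 was 0.16, and with any 1 calf left out it was at most 1.04.

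The C1q chains of round muscle lay on both sides of the controls. C1QA, the A chain, read 4.19, 6.37, 2.39 and 2.23 CPM in the controls and 2.83, 9.36, 2.08 and 1.96 CPM in the treated calves. Its log2 fold change was 0.09 ± 0.55, that of C1QB, the B chain, 0.42 ± 0.79 and that of C1QC, the C chain, -0.07 ± 0.64. Treated replicate 2 was again the highest library for all of them, and treated replicate 4 the lowest.

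The proteases of round muscle showed the same high library. C1R read 28.6, 39.5, 6.97 and 12.4 CPM in the controls and 32.8, 68.5, 11.2 and 6.65 CPM in the treated calves, with a log2 fold change of 0.44 ± 0.68. C1S read 49.8, 39.6, 10.7 and 20.3 CPM in the controls and 34.9, 100.7 and 20.7 CPM in treated replicates 1 to 3, with 14.6 CPM in treated replicate 4. Its log2 fold change was 0.50 ± 0.60. The treated range enclosed that of the controls for C1R and overlapped it for C1S.

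C3 gave the widest difference of the members in round muscle. It read 1.2, 0.419, 0.190 and 0.129 CPM in the controls and 1.18, 2.81, 2.28 and 0.372 CPM in the treated calves. Treated replicates 2 and 3 were above all controls, and the other treated calves were within the controls' range. The log2 fold change was 1.78 ± 0.77, with an unadjusted p of 0.0394 and an adjusted p of 0.864 by edgeR. The round library of treated replicate 3, where C3 had 160 counts, is the library with the highest hepatocyte markers: FGB, a fibrinogen chain, stood at 24.1 TPM and AHSG, a plasma protein, at 8.60 TPM there. AHSG was at 0 counts in 11 of 16 libraries. APOA1, an apolipoprotein, was at 5.76 TPM there but higher still, at 6.45 TPM, in the sirloin library of treated replicate 4. The part of these markers in the C3 difference was not tested, but without treated replicate 3 the C3 log2 fold change was 1.56, and without treated replicate 2 it was 1.39.

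C7 and CFD were close between the diets in round muscle. C7, of the membrane attack complex, had 14.1 ± 6.13 CPM in the controls and 16.9 ± 9.69 CPM in the treated calves, a log2 fold change of 0.26 ± 0.47. CFD had 0.850 ± 0.324 and 0.821 ± 0.290 CPM, a log2 fold change of -0.06 ± 0.47. Both genes had overlapping groups.

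In round muscle as a whole, 0 of the 9 members passed an adjusted p of 0.05 by edgeR, DESeq2 or limma-voom, against 0.0185% of the 21677 genes tested. At an unadjusted p under 0.05 there was 1 member, C3, against 4.41% of all genes. No member had groups without overlap (1.82% of all genes did). The median log2 fold change of the members was 0.42, against 0.02 over all genes tested, and it turned to -0.38 when treated replicate 2 was left out, with C1QC then at -1.12 and 7 of 9 members below 0.

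**Figure D1:**
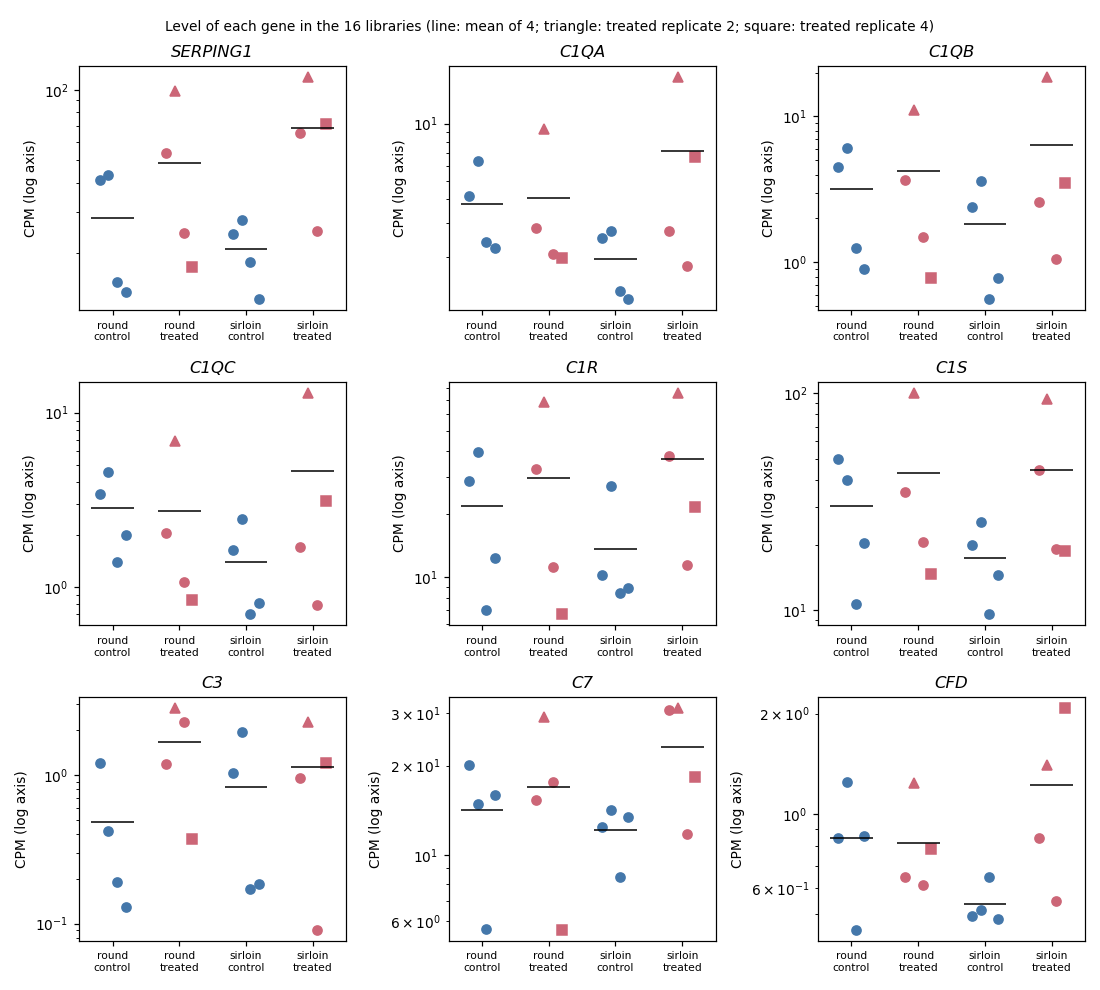
Each panel shows 1 gene, with CPM on a log axis for the 4 libraries of each group (blue, control; red, treated) and the group mean as a line; triangles mark treated replicate 2 and squares treated replicate 4. Treated replicate 2 was the highest library of its muscle for 8 of 9 genes in round and 8 of 9 in sirloin muscle.

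In sirloin muscle all 9 members had higher fitted levels in the treated calves. SERPING1 read 24.1, 27.7, 18.3 and 12.7 CPM in control replicates 1 to 4, and 65.0, 113.0, 24.9 and 71.5 CPM in treated replicates 1 to 4. Treated replicates 1, 2 and 4 were above every control, and treated replicate 3 was within the controls' range. The means were 20.7 ± 6.59 CPM and 68.6 ± 36.05 CPM (SD, n = 4 per group), and the log2 fold change was 1.73 ± 0.41 (SE).

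The C1q chains followed with larger scatter. C1QA read 2.5, 2.75, 1.33 and 1.2 CPM in the controls and 2.72, 17.5, 1.79 and 6.65 CPM in the treated calves, a log2 fold change of 1.88 ± 0.65. C1QB had 1.85 ± 1.45 CPM in the controls and 6.42 ± 8.12 CPM in the treated calves, a log2 fold change of 1.79 ± 0.86. C1QC had 1.40 ± 0.820 and 4.65 ± 5.65 CPM, a log2 fold change of 1.73 ± 0.78. The SD of the treated calves was above their mean for each chain, with treated replicate 2 far above the rest. Its C1QB reading of 18.5 CPM was 5.10 times that of the next library.

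C1R read 10.2, 27.2, 8.39 and 8.92 CPM in the sirloin controls and 37.8, 75.7, 11.4 and 21.6 CPM in the treated calves, and its log2 fold change was 1.42 ± 0.56. C1S read 19.9, 25.5, 9.55 and 14.5 CPM in the controls and 44.5, 94.1, 19.0 and 18.6 CPM in the treated calves, a log2 fold change of 1.34 ± 0.51. For the pair of proteases treated replicates 1 and 2 were above all controls, and the other treated calves overlapped with them.

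Beyond C1 the sirloin differences were smaller. C7 read 12.4, 14.1, 8.44 and 13.4 CPM in the controls and 30.8, 31.3, 11.8 and 18.3 CPM in the treated calves, with a log2 fold change of 0.93 ± 0.32. CFD had 0.536 ± 0.0750 CPM in the controls and 0.847, 1.40, 0.547 and 2.08 CPM in the treated calves, with a log2 fold change of 1.18 ± 0.47. CFD was the only member whose highest sirloin library was treated replicate 4, the library with the high adipocyte markers, where FABP4, a fatty acid carrier of fat cells, stood at 2825 TPM against at most 11.9 TPM in any other library. C3 read 1.04, 1.93, 0.170 and 0.185 CPM in the controls and 0.947, 2.27, 0.0912 and 1.21 CPM in the treated calves, a log2 fold change of 0.43 ± 0.91, less than its SE.

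By edgeR 0 of the 9 members passed an adjusted p of 0.05 in sirloin muscle (0.00918% of 21776 genes did), as by DESeq2 and limma-voom, and the lowest adjusted p over all settings was 0.0606, for SERPING1 by DESeq2, against 0.876 by edgeR. At an unadjusted p under 0.05, 6 of 9 members were higher in the treated calves (2.3% of all genes were). No member had groups without overlap (1.63% of all genes). The median log2 fold change of the members was 1.42, against 0.03 over all genes. As the members were chosen with this contrast in view, nothing is read from these counts.

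The sirloin differences were computed again without the libraries that stood apart. Without the sirloin library of treated replicate 4, the one rich in adipocyte markers, SERPING1 was at a log2 fold change of 1.71, C1QA at 1.91, C1QB at 1.99, C1QC at 1.88, C1R at 1.60, C1S at 1.60, C7 at 1.02 and C3 at 0.39. SERPING1 and C3 were slightly below their values from all 8 libraries, and the other 6 of these genes were above theirs. CFD, the factor made by fat cells, moved most, from 1.18 to 0.79. The part of fat cells in the CFD difference was not tested. All 9 members were higher in that sirloin library than in the round library of the same calf. Without treated replicate 2 instead, C1QA stood at 0.94, C1QB at 0.37, C1QC at 0.42, C1R at 0.78, C1S at 0.66 and C3 at -0.16, whereas SERPING1 stood at 1.38, CFD at 1.11 and C7 at 0.75. Without both, C1QB (-0.03), C1QC (-0.18) and C3 (-0.70) were below 0, and SERPING1 remained above it at 1.12 ± 0.41 (SE), C1S at 0.87 and C1R at 0.84. The count of members at an unadjusted p under 0.05 was 6 without treated replicate 4 (1.33% of all genes were higher), 2 without treated replicate 2 (2.19%), 1 without both (0.911%) and 8 without control replicate 2 (2.88%). With any 1 calf left out it ran from 2 to 8, and the lowest count apart from that without treated replicate 2 was 3, without control replicate 4.

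**Figure D2:**
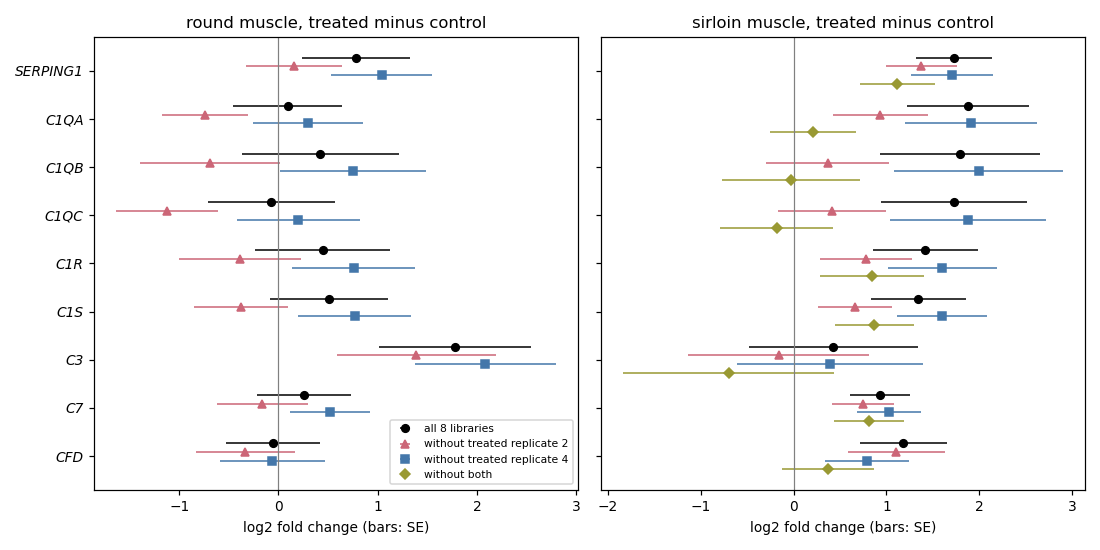
For each gene the points give the log2 fold change, treated minus control, in round (left) and sirloin muscle (right), with the SE as bars, from all 8 libraries and with treated replicate 2, treated replicate 4 or both left out (both in sirloin only). The C1q chains moved from above 1.7 to below 1 in sirloin muscle without treated replicate 2, and SERPING1 stayed above 1 in each sirloin fit.

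The same calf carried the highest levels of most members in both muscles. Treated replicate 2 was the highest library in both round and sirloin muscle for 8 of 9 members, against 4.93% of the 20576 genes with counts in both. The exception was CFD, which was highest in round control replicate 2, with treated replicate 2 at the same 1.24 CPM, and in sirloin treated replicate 4. The members were chosen with the sirloin contrast in view, to which treated replicate 2 contributes, and they varied together. Nothing is therefore read from that count. The other 38 complement genes summed to 326 TPM in the sirloin library of treated replicate 2, the lowest of the sirloin treated libraries, which reached 447 TPM. Their sum in its round library was 343 TPM, against a range of 337 to 399 TPM over the round treated libraries. These sums rest largely on C1QBP, a mitochondrial protein named for C1q, at a mean of 167.7 TPM over the 16 libraries. They therefore say little about the lower genes of the list. Of those, C4A had its highest count in the round library of this calf, and C2 and CFP in its sirloin library. MASP1, CD46 and CFB had theirs in other calves. In that calf 11 markers of macrophages, cells known to make C1q, summed to 44.0 TPM in round and 55.2 TPM in sirloin muscle, against 10.6 to 31.97 TPM in the other libraries. CD163, a scavenger receptor of macrophages, stood at 9.80 and 12.7 TPM there, against at most 8.46 TPM elsewhere. FCER1G and LAPTM5, expressed across myeloid cells, stood at 9.18 and 10.6 TPM in its sirloin library and at 5.95 and 8.84 TPM in its round library, where FCER1G was below the 7.56 TPM of control replicate 2. Of the 11 markers, 9 were highest of their muscle in this calf in round and 9 in sirloin muscle, and MRC1, a mannose receptor, and MARCO were highest in a control library of sirloin muscle. In its round library 24 interferon genes summed to 453 TPM, and in its sirloin library to 164 TPM. The part of these cells and genes in the complement levels was not tested.

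How far the muscles of 1 calf moved together was described over the 8 calves, with the group means removed. The Pearson correlation of log2 CPM between round and sirloin was 0.94 for C1S, 0.83 for C1R, 0.82 for C1QC, 0.81 for C1QB, 0.80 for C1QA and 0.67 for SERPING1. It was 0.46 for C7, 0.24 for C3 and 0.22 for CFD. The median over the 9 members was 0.80 and that over all 12315 genes with a mean of at least 1 CPM was 0.61. The quartiles over all those genes were 0.34 and 0.79, so the members' median was close to the upper quartile.

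Muscles were then compared within calf, with calf as a block. None of the members differed between sirloin and round muscle at an adjusted p of 0.05 (0 of 9 by edgeR, DESeq2 and limma-voom, against 0.533% of 22877 genes by edgeR), and 0 did at an unadjusted p under 0.05 (11.2% of all genes). SERPING1 had a log2 difference, sirloin minus round, of 0.11 ± 0.25 (SE), C1QA -0.21 ± 0.30, C1QB -0.20 ± 0.32, C1QC -0.33 ± 0.33 and C1R -0.07 ± 0.26. C1S, at -0.30 ± 0.17, had the lowest adjusted p of the members (0.586). C3 stood at -0.03 ± 0.58, C7 at 0.17 ± 0.24 and CFD at -0.10 ± 0.30. Leaving out treated replicate 4 put all 9 members below 0, from -0.60 for C1QC to -0.03 for C7, with C1QB, C1QC and C1S at an unadjusted p under 0.05 and the lowest adjusted p at 0.297 by edgeR.

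Behind these small averages the calves of each diet differed. In all 4 control calves C1QA was lower in sirloin than in round muscle, by log2 differences of -0.78, -1.25, -0.90 and -0.92, and so was C1QC, at -1.10, -0.94, -1.03 and -1.31. The treated calves gave -0.07, 0.86, -0.26 and 1.74 for C1QA and -0.27, 0.88, -0.47 and 1.84 for C1QC. Every treated calf was above every control calf for both chains, and also for C1S, whose control calves gave -1.37, -0.69, -0.23 and -0.53 and whose treated calves gave 0.34, -0.13, -0.17 and 0.35. C1QB was lower in sirloin muscle in all 4 control calves as well, but its groups overlapped. So 3 of 9 members had calf differences without overlap, higher in the treated calves, against 1.14% of all genes, and since the sirloin diet contrast is part of this measure nothing is read from that count.

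SERPING1 differed between the muscles by -0.81, -0.68, 0.22 and -0.15 in the control calves and by 0.27, 0.16, -0.01 and 2.04 in the treated calves. Treated replicate 4 was the calf with the widest gap, and all 9 members were higher in its sirloin than in its round library. In treated replicate 3 and control replicate 1, by contrast, 0 of 9 members were higher in sirloin muscle. C3 spread most, from -4.23 in treated replicate 3, whose round library held the hepatocyte markers, to 2.07 in control replicate 2, whose sirloin library had the next highest hepatocyte sum at 20.7 TPM.

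**Figure D3:**
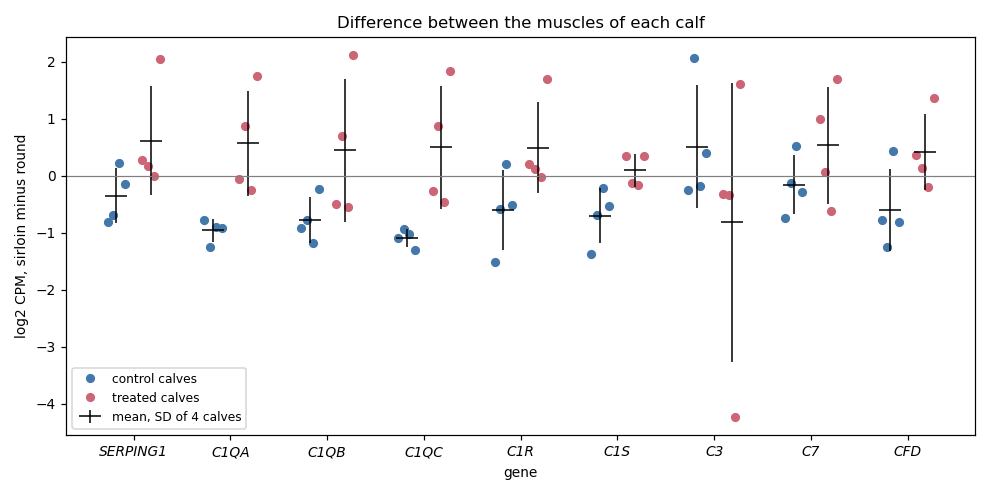
Points give the log2 CPM of sirloin minus that of round muscle in each calf (blue, control; red, treated), with the mean and SD of the 4 calves of a diet in black. The control calves lie below 0 for C1QA, C1QB, C1QC and C1S, and 1 treated calf lies near 2 for SERPING1 and the C1q chains.

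The difference of the diet effects between the muscles, sirloin minus round within calf, was 1.55 ± 0.42 (SE) on the log2 scale for C1QA, 1.22 ± 0.54 for C1QB and 1.61 ± 0.48 for C1QC. It was 0.95 ± 0.42 for SERPING1, 1.08 ± 0.42 for C1R, 0.80 ± 0.26 for C1S, 0.69 ± 0.45 for C7 and 1.09 ± 0.53 for CFD. C3 alone went the other way, at -1.25 ± 1.12. None of these 9 passed the adjusted threshold by edgeR, where the adjusted p was 1 for all of them, or by DESeq2 or limma-voom (0.00437% of 22877 genes passed by edgeR). At an unadjusted p under 0.05 there were 6 members, all higher (1.84% of all genes were), and without the calf block 0 (1.6% of all genes). With 1 calf left out that count ran from 3 to 8. Without treated replicate 4 the difference was 0.51 for SERPING1, 0.72 for C1QB, 0.72 for C1R, 0.32 for C7 and -2.04 for C3, and without treated replicate 3 that of C3 was -0.35 and that of C7 1.07. C3 was also at -0.59 in the fit without control replicate 2.

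The members also varied together across libraries. With group means removed, the 15 pairs among SERPING1, C1QA, C1QB, C1QC, C1R and C1S had Pearson correlations between 0.78 and 0.98 over the 16 libraries of 8 calves. The chains of C1q were the closest, at 0.98 for C1QA with C1QC, 0.96 for C1QB with C1QC and 0.93 for C1QA with C1QB. C1R and C1S stood at 0.94, and SERPING1 with C1QB and with C1R at 0.93 each. Pairs with C3 lay between 0.44 and 0.84, pairs with C7 between 0.43 and 0.84 and pairs with CFD between 0.42 and 0.71. Without both libraries of treated replicate 2, the 15 pairs ran from 0.58 to 0.95. Libraries of the same calf enter as separate points, so these values are a description only.

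**Figure D4:**
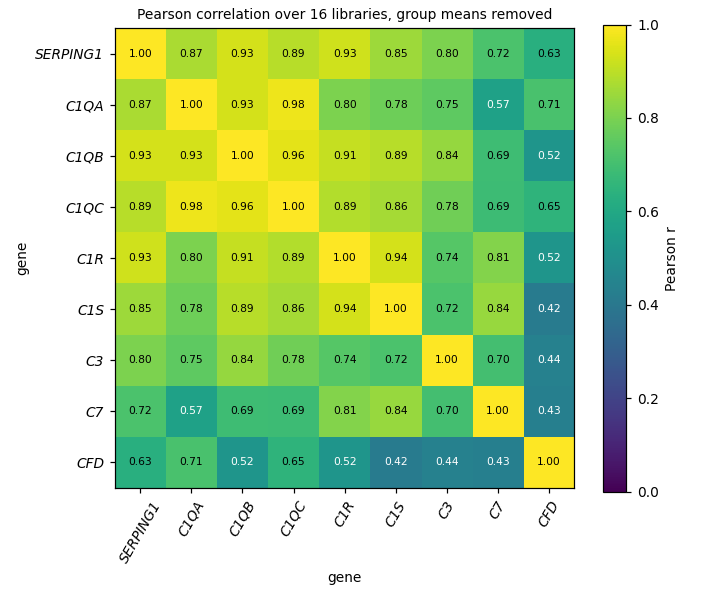
The colour and number in each cell give the Pearson correlation of log2 CPM between 2 genes over 16 libraries after subtraction of the group means. SERPING1, C1QA, C1QB, C1QC, C1R and C1S form a block at 0.78 or above, and CFD gives the lowest values.

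Among 12307 other genes with a mean of at least 1 CPM, those whose log2 CPM followed the mean of the C1q chains most closely over the 16 libraries were BRB (r = 0.94), CD163 (0.94), TCIRG1 (0.94), F13A1 (0.93) and LOC515150 (0.90). CD163 and F13A1, a coagulation factor subunit, are known from tissue macrophages, BRB encodes a brain-type ribonuclease, and TCIRG1 encodes a subunit of a proton pump. For SERPING1 they were UNC93B1 (0.91), a trafficking partner of Toll-like receptors, LMF2 (0.91), CROCC (0.89), a protein of ciliary rootlets, the tetraspanin CD81 (0.88) and ITM2C (0.88). Group means were not removed for these correlations, and libraries of the same calf enter as separate points, so they are a description only. BRB stood at 16.6 and 24.0 TPM in treated replicate 2, against at most 9.06 TPM elsewhere, whereas ITM2C reached its highest level, 22.9 TPM, in another calf.

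Of the other complement genes, 38 had a row, and 0 of them passed an adjusted p of 0.05 in any of the 4 comparisons by edgeR. At an unadjusted p under 0.05, 4 were higher and 1 lower in treated round muscle, 2 higher and 3 lower in treated sirloin muscle, and 1 lower in sirloin than in round, while the diet effect was higher in sirloin than in round for 3 and lower for 2. Of all genes, 417 were higher and 539 lower of 21677 in round, and 500 and 352 of 21776 in sirloin muscle. Between the muscles 1246 of 22877 were lower, and the diet effect was higher for 422 and lower for 443. The 4 in round muscle, MBL2, MASP2, C9 and C4BPA, had their highest counts in treated replicate 3, the library with the hepatocyte markers. They and the 3 lower in sirloin, C5, C8A and C8B, had mean levels of at most 0.0808 TPM. The 2 higher in sirloin muscle were CFP and C5AR1, at mean levels of 1.2 and 0.825 TPM. The genes with a level of at least 1 TPM gave no common direction. C4A, the substrate of C1s, whose reads may be shared with a near-identical copy, was at a log2 fold change of 0.83 ± 0.88 in round and 1.61 ± 0.74 in sirloin muscle. CFB, the factor that factor D cuts, was at 0.29 ± 0.65 and 1.69 ± 0.85, and CFP, properdin, which stabilises the alternative convertase, at 0.66 ± 0.49 and 1.27 ± 0.47. MASP1, a protease of the lectin route, was at 0.74 ± 0.54 and -0.22 ± 0.65, and COLEC12, a collectin, at 0.06 ± 0.35 and 0.47 ± 0.24. C1QBP, a binding protein of mitochondria named for C1q, was the highest of the list at a mean of 167.7 TPM and stood at 0.09 ± 0.28 and -0.10 ± 0.20, and C8G, of the terminal complex, at 0.78 ± 0.41 and 0.47 ± 0.32.

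Of the regulators, those described here were within 1 SE of 0 in sirloin muscle, apart from CD46. CD46 was at 0.36 ± 0.28, CD59, which blocks the membrane complex, at -0.19 ± 0.55, CD55, which speeds the decay of convertases, at 0.15 ± 0.43, and the fluid regulator CLU at 0.18 ± 0.34. In round muscle CD46 was at -0.05 ± 0.26, CD59 at 0.24 ± 0.27, CLU at -0.40 ± 0.41 and CD55 at -0.96 ± 0.40. Among them only CD55 had an unadjusted p under 0.05 in that muscle, with an adjusted p of 0.864 by edgeR.

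Of the receptors, C5AR1, which binds the C5a fragment, was at 1.40 ± 0.52 in sirloin and 0.19 ± 0.51 in round muscle, and its relative C5AR2 at -0.50 ± 0.49 and -0.42 ± 0.40. The integrin chains ITGB2 and ITGAM, which form the C3 fragment receptor CR3, were at 1.08 ± 0.51 and 1.14 ± 1.26 in sirloin and at 0.45 ± 0.93 and -0.13 ± 1.56 in round muscle. VSIG4, the C3b receptor of resident macrophages, was at 1.36 ± 1.13 and 1.18 ± 1.34, C3AR1 at 1.01 ± 1.28 and 0.44 ± 1.59, CR2 at 0.62 ± 0.85 and -1.11 ± 0.63 and CD93 at 0.01 ± 0.40 and 0.29 ± 0.44. ITGAM, VSIG4, C3AR1 and CR2 had mean levels below 0.2 TPM.

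The marker lists were counted beside the members, and by edgeR 0 genes of any of them passed an adjusted p of 0.05 in a diet contrast. For comparison, at an unadjusted p under 0.05 by edgeR, 500 of all 21776 genes were higher and 352 lower in treated sirloin muscle. These counts were 473 and 267 of 21554 without treated replicate 2, 284 and 387 of 21349 without treated replicate 4, and 192 and 269 of 21067 without both. In round muscle they were 417 and 539 of 21677, and 272 and 465 of 21394 without treated replicate 2. In sirloin muscle 3 of 11 macrophage markers were higher in treated calves at an unadjusted p under 0.05, with a median log2 fold change over the list of 0.96. Without treated replicate 2 the count was 1 and the median 0.34, and without treated replicates 2 and 4 the count was 0 and the median -0.11. For the 10 fibroblast markers the count was 1 higher with a median of 0.25, for the 7 endothelial markers 0 with a median of 0.14, for 8 markers of other leukocytes 2 higher with a median of 1.18 and for 7 tested red blood cell markers 3 higher with a median of 1.59. For 8 adipocyte markers it was 6 higher with a median of 6.51, which without treated replicate 4 became 0 higher and 1 lower with a median of -0.51. For 8 hepatocyte markers it was 6 lower with a median of -3.66, and 3 lower without treated replicate 4 or without treated replicate 2. Without treated replicate 4 the fibroblast median was at -0.07, and the counts fell to 0 for other leukocytes and 1 for red blood cells. The medians of those 2 lists stayed above 0, at 1.19 and 1.14. The macrophage count in that setting remained 3 of 11, with a median of 0.93. In round muscle it was 0 of 11 for macrophages (median 0.21, and -0.44 without treated replicate 2), 1 lower for fibroblasts (-0.70), 1 higher for endothelium (0.08), 1 lower for adipocytes (-0.05), 4 higher for hepatocytes (3.77), 1 higher for other leukocytes (0.71) and 3 of 6 higher for red blood cells (1.5). The round hepatocyte sum was 54.9 TPM in treated replicate 3, against 3.17 to 4.66 TPM in the other treated libraries of that muscle. The 24 interferon genes had 0 at that threshold in sirloin muscle (median 0.16) and 1 lower in round muscle (median -0.04). Without treated replicate 2, all 24 were below 0 in round muscle, 5 of them at that threshold, with a median of -0.90, and 21 were below 0 in sirloin muscle with a median of -0.63. All 11 skeletal muscle markers were below 0 in sirloin muscle, 1 of them at that threshold, with a median of -0.30. Without treated replicate 4, 8 of them were below 0. In round muscle 6 were above 0 and 5 below, with 1 higher at that threshold and a median of 0.06. Summed macrophage levels ran from 10.6 to 31.97 TPM in round controls, 13.2 to 44.0 in round treated, 11.02 to 23.2 in sirloin controls and 10.6 to 55.2 in sirloin treated libraries, and MARCO was the only macrophage marker at 0 counts in most libraries (11 of 16).

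**Figure D5:**
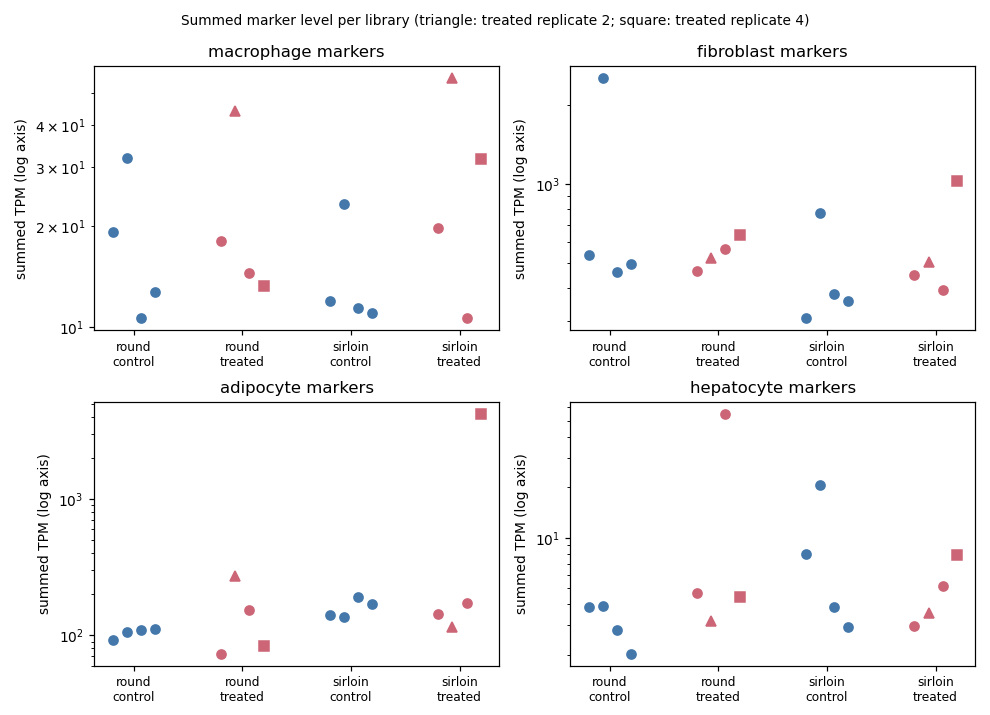
Each panel gives the summed TPM of a marker list on a log axis in the 16 libraries (blue, control; red, treated; triangle, treated replicate 2; square, treated replicate 4). Macrophage markers were highest in both libraries of treated replicate 2, adipocyte markers in the sirloin library of treated replicate 4 (4221 TPM) and hepatocyte markers in 1 round treated library (54.9 TPM).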

How the data were processed

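Total RNA of round and sirloin muscle was sequenced by the authors, and 16 libraries of 8 calves were analysed. The deposited files hold read counts per NCBI gene ID, not normalized, and TPM values that the authors computed; the submitters' processing notes name Trimmomatic, STAR, featureCounts and the build ARS-UCD1.2, whereas the study's methods name another aligner and assembler, and which of them made each file was not settled. The labels and the methods also differ on poly(A) selection or rRNA depletion. Columns of the authors' own comparisons (fold changes and p-values) were not used. Of 34109 gene IDs, 30762 matched a symbol; 133 of 140 listed genes had a row.

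The members and lists were chosen with earlier results of these data known. Counts of genes with at least 1 count were tested in edgeR 4.0.16 (R 4.3.3; TMM, quasi-likelihood test, Benjamini-Hochberg adjustment over all genes tested, threshold 0.05), per muscle for diet, and over all 16 libraries with calf as a block for muscle and for diet by muscle. SE is the log2 fold change divided by the root of F. The calf was inferred from the number that the labels of a round and a sirloin library share. Libraries matched in this way deviated together across genes (r of 0.25 to 0.59). DESeq2 1.42.0, limma 3.58.1 (voom, and TPM on the log2 scale with a pseudocount of 0.1 or 1), other scalings, filters, blocks and left-out calves were alternatives. Scripts were tested on simulated data, where edgeR's diet by muscle fit with the calf block called genes that had not been changed, also when none had been, so its counts of calls are less reliable than those of the other fits. Genes were named by a fixed rule: every member, other complement genes with a mean of at least 1 TPM and all receptors, at most 3 genes per marker list by mean TPM, and the 5 genes closest to SERPING1 and to C1q (log2 CPM, prior count 2). MARCO, MRC1, MBL2, MASP2, C9, C4BPA, C5, C8A and C8B were named after their values were seen. Some genes that the rule names are not reported here.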

Additional observations from a re-analysis of the deposited data

Results flagged for a closer look

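In groups of 4 libraries, 3 of the 36 member and group combinations held a library far from the other 3, its gap to the nearest neighbour being a larger share of the group's range than Dixon's critical value; chance marks about 1 in 20 such groups. C1QA in round treated muscle had a gap of 0.883 of the range, set by treated replicate 2 at 9.36 CPM. C1QB in sirloin treated muscle had a gap of 0.859, set by the same calf at 18.5 CPM. C1R in sirloin control muscle had a gap of 0.901, set by control replicate 2 at 27.2 CPM, 1 of the pair of libraries whose TPM values followed the counts less closely.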

How the results depend on the processing

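With 4 calves per group and a high calf in the treated group, the data limit what could be called: the SE of the diet differences of the members ran up to 0.91 on the log2 scale, and C3 rests on as few as 6 counts. The number of members called was 0 in each comparison under every alternative run. Direction changed only in the members named here, and the cause was not tested. In round muscle, C1QA changed from 0.09 to -0.18 with limma-voom and to -0.10 with the replicate block, and CFD from -0.06 to 0.064 on TPM with a pseudocount of 0.1, with or without a filter, and to 0.032 with a pseudocount of 1. With 1 calf left out, round log2 fold changes ran from -0.74 to 0.43 for C1QA, -0.69 to 0.91 for C1QB, -1.12 to 0.22 for C1QC, -0.39 to 0.86 for C1R, -0.38 to 0.86 for C1S, -0.16 to 0.52 for C7 and -0.33 to 0.16 for CFD, and the sirloin value of C3 from -0.16 to 1.28. With treated replicates 2 and 4 both left out, an alternative chosen after seeing the data, sirloin C1QB was at -0.026, C1QC at -0.18 and C3 at -0.70. For the muscle difference, C1R was at 0.0018 on TPM with a pseudocount of 0.1, filtered or not, CFD at 0.011 with a pseudocount of 1, and without the calf pairing (no replicate block) SERPING1 at -0.0067 and C3 at 0.077. With 1 calf left out it ran from -0.13 to 0.24 for SERPING1, -0.29 to 0.13 for C1R, -0.40 to 0.44 for C3, -0.027 to 0.30 for C7 and -0.31 to 0.076 for CFD. Replicate numbers do not pair calves across the diets (r of same-numbered libraries -0.07 to 0.19 in round and -0.15 to 0.16 in sirloin), and the replicate block changed no call; it put the sirloin value of SERPING1 at 1.61. On TPM with a pseudocount of 0.1 the median of all genes in sirloin muscle was at 0.14, and at 0.18 after the filter, against 0.03 on counts; in round muscle it was at 0.11 after the filter.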
